A study of Mus musculus with 12 samples.

Results

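The clock output genes described here are 10 genes that the circadian clock drives or that act beside it in liver: Dbp, Tef, Hlf, Nfil3, Ciart, Usp2, Bhlhe40, Bhlhe41, Noct and Tspan4. Every probe set whose only gene symbol is one of these was taken, which gave 16 probe sets of the 45037 tested and 10 of the 18193 genes that the array measures with a probe set of their own. On this array, a set of short probes (a probe set) reads 1 transcript or a few. Total RNA was taken from the liver of adult male C57BL/6 mice, and each Affymetrix Mouse Genome 430 2.0 array held RNA of 1 mouse. There were 4 sham-treated controls kept in filtered air (replicates 1 to 4), 4 mice exposed to secondhand smoke (SHS) for 4 months (SHS4m, replicates 66 to 69) and 4 mice that had this exposure and then breathed clean air for 1 month (the recovery group, SHS4m+1m, replicates 70 to 73). All mice were on a standard diet. The labels do not say whether a control mouse was killed with the SHS4m or with the recovery mice. None of the sources used here gives the time of day at which the livers were taken, so time of day and smoke exposure cannot be told apart for any gene with a daily rhythm.

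In the liver clock, the factors CLOCK and ARNTL bind E-boxes in DNA and switch on the period, cryptochrome and REV-ERB genes, whose products act back on them, so that transcripts rise and fall each day. Output genes carry this rhythm onward. DBP, TEF and HLF are related leucine zipper factors (the PAR bZIP family) that activate genes with a D-box, many of them for drug and lipid metabolism, while NFIL3 (E4BP4) binds the same element and represses it. CIART, BHLHE40 and BHLHE41 repress transcription by CLOCK and ARNTL, USP2 is a deubiquitinase, and NOCT (nocturnin) is a phosphatase that is strongly rhythmic in liver. TSPAN4 is a membrane protein of the tetraspanin family.

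The E-box is the element that CLOCK and ARNTL bind. Matches near the start sites of the member genes are therefore shown first, with the letters of the E-box in capitals. RefSeq windows (assembly GRCm38.p6) of 250 bases before to 50 bases after a start site were at hand for 9 of the 10 genes, in 11 windows, Bhlhe40 being the gene with none. The letters CACGTG, which read the same on both strands, stood in 5 of the 11 member windows (45.5%), those of Ciart, Bhlhe41, Tspan4 and Tef, and in 2349 of all 32851 windows (7.15%). The windows of Usp2, Dbp, Noct, Hlf and Nfil3 held 0 copies. Ciart held 3 copies, which begin 116, 58 and 44 bases before the start site (chr3:95882258-95882478, minus strand).
Ciart: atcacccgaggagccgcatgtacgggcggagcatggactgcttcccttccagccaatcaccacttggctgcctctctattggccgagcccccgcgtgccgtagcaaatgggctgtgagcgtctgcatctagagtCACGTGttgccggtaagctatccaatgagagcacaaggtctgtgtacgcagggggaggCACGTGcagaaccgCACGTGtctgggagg
Bhlhe41 and the first start site of Tef each held 1 copy, as did a second start site of Tspan4 that lies inside the gene, while the window of its first start site held 0. They are shown with the 12 bases on either side (chr6:145865556-145865585, minus strand, 153 bases before the start; chr7:141476317-141476346, plus strand, 51 bases before; chr15:81802534-81802563, plus strand, 127 bases before).
Bhlhe41: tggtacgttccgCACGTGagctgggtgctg
Tspan4, second start: cccccatggagcCACGTGcagagccacgag
Tef: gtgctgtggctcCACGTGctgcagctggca
A second start site of Tef, also inside the gene, held 1 further copy 138 bases before it (chr15:81811264-81811293, plus strand).
Tef, second start: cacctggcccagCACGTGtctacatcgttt
The variant CACGTT, read on both strands, was in 0 of the 11 windows and in 4.68% of all windows. The D-box letters TTATGTAA and TTACGTAA, also on both strands, were in 0 of 11 against 0.938% and 0.119%. These are matches of letters in a short window only.

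Signals were deposited as linear intensities, raised here to a floor of 32 and put on the log2 scale, where the floor is 5. The 3 groups were compared with limma across all probe sets, and a probe set was called at a Benjamini-Hochberg adjusted p under 0.05. Every p below is that two-sided adjusted p from limma unless said otherwise. Of the 16 member probe sets, 14 were above the floor on all 12 arrays. The liver markers Alb, Apoa1, Ttr, Cps1, Tat and Hnf4a were bright on every array, and 0 of these 6 genes were called by their brightest probe set in either comparison with controls. Between 29.9% and 33.5% of the values of an array were below the floor. The array of recovery replicate 72 stood apart in the ratio of 3' to 5' signal of actin, which rises as RNA degrades, at 8.82. On the other arrays it was 3.24 to 3.90 in controls, 3.90 to 4.64 in SHS4m mice and 4.10 to 4.36 in recovery mice, so every exposed mouse was above every control, though by little for SHS4m replicate 68. The same ratio for Gapdh was also highest for recovery replicate 72, at 4.52. On the other arrays it overlapped between the groups. It was 2.37 to 2.95 in controls, 2.24 to 2.69 in SHS4m mice and 2.29 to 2.77 in recovery mice. The part of RNA quality in the comparisons with controls below was not tested.

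In both smoke groups, 4 of the 10 genes were higher than in controls, namely Usp2, Ciart, Tef and Tspan4, and 0 were lower. Usp2 and Ciart had the widest differences, between 6.05-fold and 9.58-fold by their brightest probe sets, while those of Tef and Tspan4 lay between 1.61-fold and 2.35-fold. Counted over probe sets, 5 of 16 were called higher in SHS4m mice, where 2.52% of all 45037 were called higher and 5.4% in either direction. In recovery mice 5 of 16 were again called higher, against 0.877% of all probe sets higher and 2.07% in either direction. By the brightest probe set of each gene, 3.73% of all genes were called higher in SHS4m mice and 1.37% in recovery mice. Calls of lower signal, of which the members had 0, made up 2.87% and 1.19% of all probe sets. At an unadjusted p under 0.05, 8 member probe sets were higher and 0 lower in SHS4m mice, and 9 were higher and 0 lower after recovery, where 17.4% and 13.3% of all probe sets passed in either direction. With a 2-fold change required as well, the member counts were 7 and 9, and the shares of all probe sets were 2.47% and 1.37%. The median log2 difference of the 10 genes was 0.87 at the end of exposure and 1.12 after recovery, and the median of all probe sets was 0 in both. Both comparisons use the same 4 control arrays. Usp2, Ciart, Noct, Tef and Dbp were among the genes that the study singled out on these same arrays, so their direction is not independent evidence. The study listed Noct and Dbp as changed both before and after recovery, by a p under 0.05 and a 2-fold change. Here neither gene was called in either comparison with controls. For Usp2 the study also reported higher levels by RT-qPCR, both before and after recovery.

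**Figure D1:**
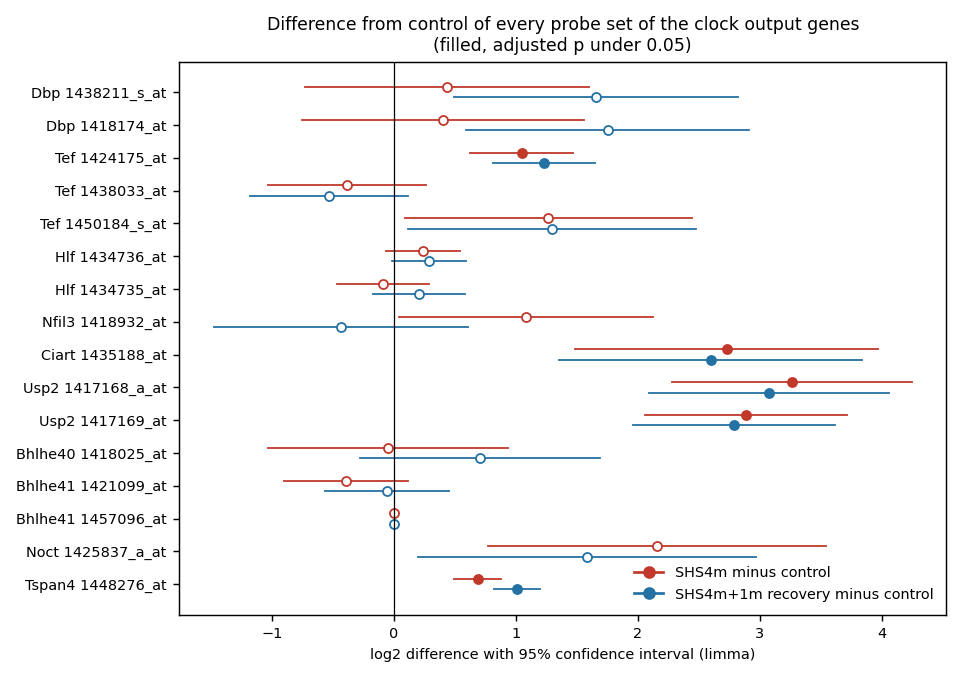
Log2 difference from control (x axis) of each of the 16 probe sets, with 95% confidence intervals from limma, for SHS4m mice and for SHS4m+1m recovery mice; filled points have an adjusted p under 0.05. Both probe sets of Usp2 and the probe sets of Ciart and Tspan4 are filled in both comparisons, as is 1 of 3 probe sets of Tef, and a probe set of Bhlhe41 that was at the floor on all 12 arrays lies at 0.

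The PAR bZIP activators did not move alike. The log2 signal of Dbp (1438211_s_at) was 12.84, 12.96, 11.21 and 10.41 in controls 1 to 4. It was 11.93, 12.58, 12.58 and 12.07 in the SHS4m mice and 13.26, 13.41, 13.83 and 13.54 in the recovery mice. All SHS4m values lay within the control range, whereas every recovery value lay above every control and every SHS4m value. The difference from control was 0.43 in SHS4m mice (95% interval -0.73 to 1.60, adjusted p = 0.764). In recovery mice it was 1.66 (3.15-fold, 95% interval 0.50 to 2.82, adjusted p = 0.166 from limma), which was not called. Groups that do not overlap, with the smoke group higher, were seen for 3.25% of all probe sets in the recovery comparison and for 5.13% in the SHS4m comparison. The other Dbp probe set (1418174_at) gave a recovery difference of 1.75 with an adjusted p of 0.141.

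Tef was higher in both smoke groups by its brightest probe set (1424175_at). Its log2 signals were 11.60, 11.80, 11.02 and 10.85 in controls, 12.43, 12.41, 12.21 and 12.39 in SHS4m mice and 12.51, 12.65, 12.59 and 12.44 in recovery mice. Every exposed mouse was above every control, and the lowest SHS4m value was 0.41 above the highest control. Tef rose 2.07-fold in SHS4m mice (log2 difference 1.05, SE 0.19, adjusted p = 0.0126) and 2.35-fold in recovery mice (1.23, 95% interval 0.81 to 1.65, adjusted p = 0.0145). Its other probe sets did not give this call. That of 1438033_at was -0.38 in SHS4m mice (adjusted p = 0.608) and -0.53 in recovery mice (adjusted p = 0.491). A dimmer one, 1450184_s_at, was at the floor in 3 of 4 controls and differed by 1.27 and 1.30 (adjusted p = 0.244 and 0.309). The call for Tef therefore rests on 1 of 3 probe sets, and which transcripts each one measures was not examined. That call was lost in both comparisons when only the 8 arrays compared were fitted (adjusted p = 0.0531 and 0.0765).

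For Hlf, the third activator, all 12 log2 signals lay between 10.63 and 11.36 (1434736_at). The differences from control were 0.24 in SHS4m mice (95% interval -0.07 to 0.54, adjusted p = 0.434) and 0.29 in recovery mice (-0.02 to 0.59, adjusted p = 0.411). The groups overlapped in both comparisons. The upper ends of these intervals are below the differences of Tef's brightest probe set. The second Hlf probe set gave -0.09 and 0.21, neither called.

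Nfil3, the repressor that competes with the PAR bZIP factors for the D-box, had log2 signals of 7.76, 8.70, 9.03 and 10.12 in controls (1418932_at). They were 10.24, 10.11, 10.20 and 9.37 in SHS4m mice and 8.05, 8.02, 9.11 and 8.69 in recovery mice. Of the SHS4m mice, 2 lay above the highest control and the other two within the control range, and the recovery mice lay wholly within the control range and wholly below the SHS4m mice. Nfil3 differed from control by 1.08 in SHS4m mice (95% interval 0.04 to 2.13, adjusted p = 0.263) and by -0.43 in recovery mice (-1.47 to 0.61, adjusted p = 0.772). Neither difference was called.

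**Figure D2:**
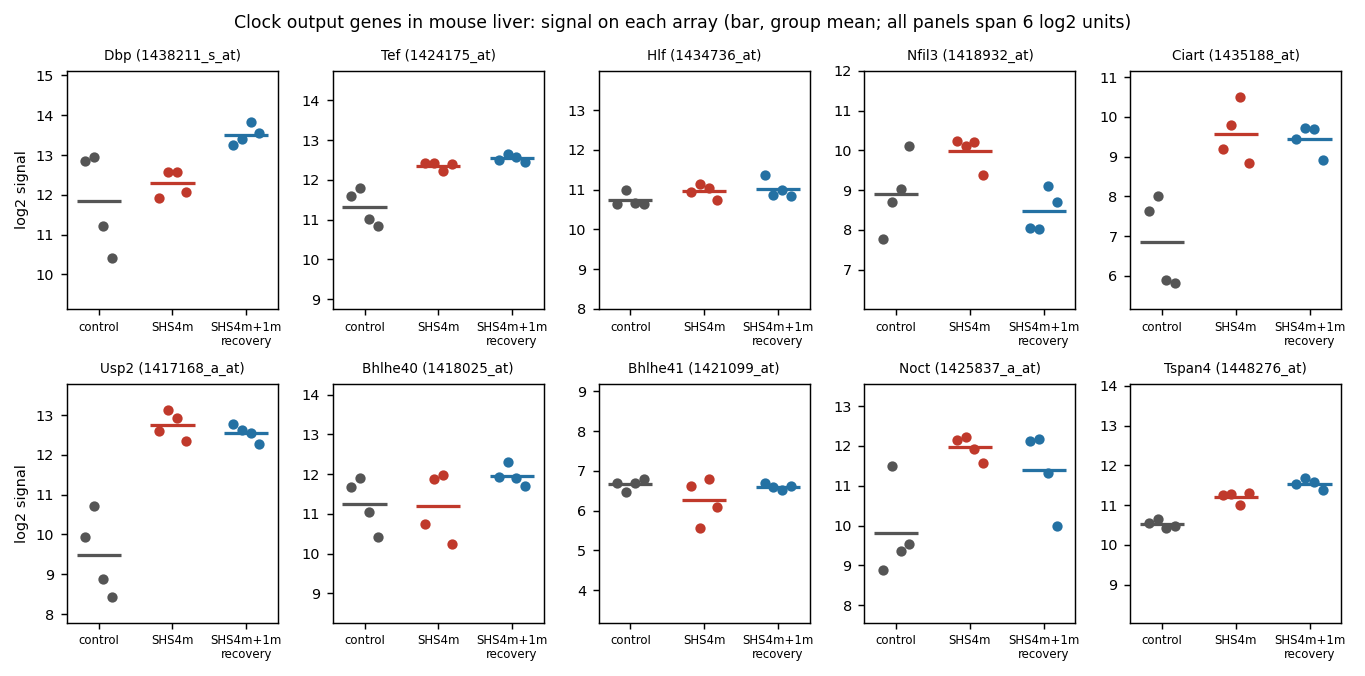
Log2 signal (y axis) of the brightest probe set of each of the 10 genes on the 12 arrays, by group (x axis); each point is 1 mouse and each bar is the mean of 4. Usp2, Ciart, Tef and Tspan4 lie above all controls in both smoke groups, Dbp lies above all controls in recovery mice, and the controls are widely spread for Dbp, Nfil3, Ciart, Usp2 and Noct.

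Among Ciart, Bhlhe40 and Bhlhe41, the output genes that encode repressors of CLOCK and ARNTL, Ciart was the one that was called. Ciart (1435188_at) had log2 signals of 7.64, 8.02, 5.90 and 5.83 in controls. It had 9.18, 9.80, 10.49 and 8.83 in SHS4m mice and 9.46, 9.71, 9.70 and 8.91 in recovery mice. All 8 exposed mice were above all 4 controls, and controls 3 and 4 were less than 1 log2 unit above the floor. Ciart rose 6.62-fold in SHS4m mice (log2 difference 2.73, 95% interval 1.49 to 3.97, adjusted p = 0.0215) and 6.05-fold in recovery mice (2.60, 1.35 to 3.84, adjusted p = 0.048). The recovery call was lost when any 1 array other than control 2 was left out (adjusted p = 0.0521 to 0.121), including recovery replicate 72 (2.51, adjusted p = 0.117), and it held under 6 of 22 alternatives that use the adjusted p. That of the SHS4m mice, which held under 17 of 22, was lost without control 3 (adjusted p = 0.0582), control 4 (0.0547), SHS4m 67 (0.0591) or SHS4m 68 (0.0565), and when only the 8 arrays compared were fitted (0.0717).

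Bhlhe40 and Bhlhe41, which encode the DEC repressors, were not called. The log2 signals of Bhlhe40 were 11.68, 11.89, 11.04 and 10.41 in controls, 10.75, 11.87, 11.97 and 10.24 in SHS4m mice and 11.92, 12.30, 11.90 and 11.71 in recovery mice. The SHS4m mice spanned the whole control range, and 3 recovery mice were just above it. The differences from control were -0.05 (95% interval -1.03 to 0.93) and 0.70 (-0.28 to 1.69, adjusted p = 0.58). Bhlhe41 was measured by 1421099_at, on which all 12 signals lay between 5.57 and 6.80, near the floor. It differed by -0.39 in SHS4m mice (95% interval -0.90 to 0.12) and by -0.06 in recovery mice (-0.57 to 0.45). A change of Bhlhe41 could be seen only in part at this signal.

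The deubiquitinase gene Usp2 had the largest difference of the 10 genes in both comparisons. By 1417168_a_at its log2 signals were 9.93, 10.72, 8.87 and 8.44 in controls, 12.60, 13.14, 12.92 and 12.35 in SHS4m mice and 12.79, 12.63, 12.55 and 12.28 in recovery mice. The lowest exposed mouse was above the highest control by more than 1 log2 unit. Usp2 rose 9.58-fold in SHS4m mice (log2 difference 3.26, SE 0.44, adjusted p = 0.0035) and 8.42-fold in recovery mice (3.07, 95% interval 2.09 to 4.06, adjusted p = 0.0114). The other probe set, 1417169_at, gave 7.38-fold and 6.89-fold (adjusted p = 0.0028 and 0.0089). Without recovery replicate 72 the recovery difference was 3.08 (adjusted p = 0.032). With only the 8 arrays compared, the recovery call of 1417168_a_at was lost (adjusted p = 0.0652) and its SHS4m call held (adjusted p = 0.024).

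Noct, the nocturnin gene, stood between the called and the uncalled genes. Its log2 signals (1425837_a_at) were 8.89, 11.51, 9.36 and 9.53 in controls, 12.15, 12.23, 11.93 and 11.58 in SHS4m mice and 12.13, 12.17, 11.32 and 9.99 in recovery mice. Control 2 was about 2 log2 units above the other controls and just below the lowest SHS4m mouse, while recovery replicate 73 was near the other controls. The difference was 2.15 in SHS4m mice (95% interval 0.77 to 3.54, adjusted p = 0.0829) and 1.58 in recovery mice (0.20 to 2.96, adjusted p = 0.285). Without control 2, the SHS4m difference was 2.72 and was called (adjusted p = 0.0197). The recovery difference was called under 0 of 22 alternatives that use the adjusted p, although it passed the unadjusted p with a 2-fold change.

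Tspan4, which encodes a membrane protein, had the smallest of the called changes. Its log2 signals (1448276_at) were 10.56, 10.65, 10.42 and 10.47 in controls, 11.26, 11.27, 11.00 and 11.32 in SHS4m mice and 11.52, 11.67, 11.58 and 11.38 in recovery mice. The groups were in the order control, SHS4m, recovery with no overlap between neighbours. Tspan4 rose 1.61-fold in SHS4m mice (log2 difference 0.69, SE 0.08, adjusted p = 0.00239) and 2.02-fold in recovery mice (1.01, 95% interval 0.82 to 1.20, adjusted p = 0.0028). Both calls held under all 22 alternatives that use the adjusted p, and the SHS4m difference is under the 2-fold limit of the study.

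A direct comparison of recovery with SHS4m mice called 0 of the 16 member probe sets in limma, where 2.54% of all probe sets were called, 1.32% as higher and 1.22% as lower in recovery mice. At an unadjusted p under 0.05 there were 4, where 13.7% of all probe sets passed: both Dbp probe sets and Tspan4 were higher and Nfil3 was lower in recovery mice. All but Tspan4 also had a 2-fold change, as did 1.7% of all probe sets. Dbp differed by 1.22 (95% interval 0.06 to 2.38, adjusted p = 0.327) and Nfil3 by -1.51 (-2.56 to -0.47, adjusted p = 0.147). Dbp and the D-box repressor thus lay in opposite directions with no overlap of the groups for either. The other D-box activators differed little, Tef by 0.18 (adjusted p = 0.757) and Hlf by 0.05 (adjusted p = 0.996). Groups that do not overlap were seen for 4.26% of all probe sets with recovery higher and for 3.99% with recovery lower. Tspan4 differed by 0.33 (0.14 to 0.51, adjusted p = 0.0864). The genes that had risen most showed small differences with wide intervals. That of Usp2 was -0.19 (-1.17 to 0.79) and that of Ciart was -0.13 (-1.37 to 1.11). These intervals are not adjusted for the number of probe sets tested, and a call needed a larger change than their ends. Even the -1.51 of Nfil3, with an interval of similar width, was not called.

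The controls were spread widely for several of these genes. The median SD of the log2 signal over the 16 member probe sets was 0.714 in controls, 0.327 at the end of exposure and 0.238 after recovery, and over all 45037 probe sets it was 0.233, 0.225 and 0.241. Controls had the highest SD of the 3 groups for 9 of the 16 (56.2%), against 30.9% of all probe sets. This was not particular to the output genes. Controls also had the highest SD for 8 of the 14 core clock genes described below (57.1%, brightest probe sets). The median SD of those 14 was 0.425 in controls, 0.279 at the end of exposure and 0.276 after recovery. Dbp had an SD of 1.25 in controls, 0.34 at the end of exposure and 0.242 after recovery, and for Usp2 the SD was 1.03, 0.349 and 0.214. Controls 1 and 2 were both above controls 3 and 4 for 9 of 16 member probe sets (56.2%) and for 12.8% of all probe sets. Dbp, Tef, Usp2, Ciart, Bhlhe40 and Tspan4 showed this order and Nfil3 showed the opposite. The order was noticed in these values and was not tested. The spread was not higher in controls for every gene, since Bhlhe40 and Bhlhe41 varied most in SHS4m mice (SD 0.852 and 0.556).

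**Figure D3:**
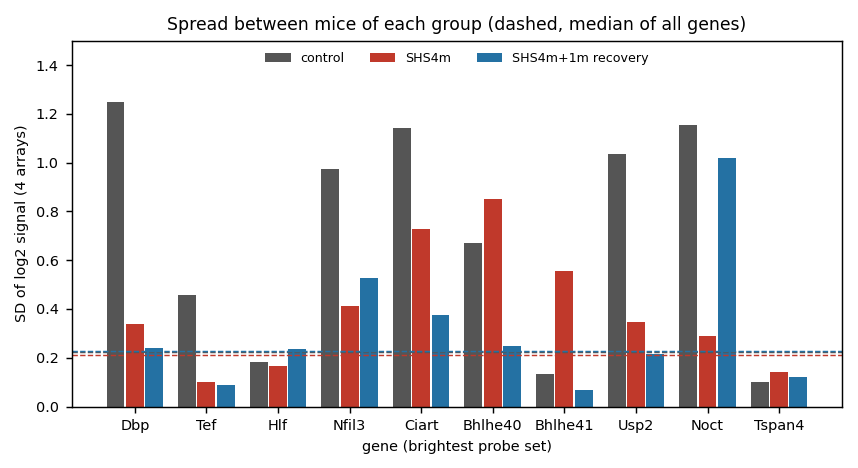
Standard deviation of the log2 signal over the 4 arrays of each group (y axis) for the brightest probe set of the 10 genes (x axis); dashed lines are the medians over all genes for each group. Bars of controls reach 1.25 for Dbp, 1.16 for Noct, 1.14 for Ciart and 1.03 for Usp2, while Hlf and Tspan4 lie near or below the dashed lines in all groups.

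The core clock genes upstream of these outputs were read from a list of 16, of which 14 were measured alone. By the brightest probe set, 3.74% of all genes were called lower in SHS4m mice and 1.14% after recovery. Of 4 activators, 1 was called lower in both comparisons, Clock, which encodes a partner of ARNTL, by -1.02 (adjusted p = 0.0119) and -1.18 (adjusted p = 0.0145). For Arntl itself the log2 signals were 7.15, 6.65, 8.50 and 8.76 in controls, 6.10, 6.00, 5.15 and 7.26 in SHS4m mice and 5.82 and 6.12 in recovery mice 70 and 71, with the last 2 recovery mice at or near the floor. Controls 3 and 4, which were low for Dbp, Usp2 and Ciart, were thus the high ones for Arntl. Arntl differed by -1.64 (adjusted p = 0.158) and -2.28 (adjusted p = 0.0863), neither called. Npas2, a relative of Clock, was at or near the floor in 10 of 12 mice, and Rora gave -0.02 and 0.25.

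Of 10 genes of the repressing arm, 1 was called higher in both comparisons, the period gene Per2, by 1.32 (adjusted p = 0.0228) and 1.30 (adjusted p = 0.0449). Over all genes, 3.73% were called higher in SHS4m mice and 1.37% after recovery. Of the 24 probe sets of these genes, 2 were called higher in each comparison with controls, and 1 was called lower in recovery mice. Per1 differed by 1.69 (adjusted p = 0.0753) and 1.87 (adjusted p = 0.0865). Per3 resembled Dbp, with 0.73 in SHS4m mice (adjusted p = 0.549) and 2.15 in recovery mice (adjusted p = 0.0632). By their brightest probe sets, Cry1 and Cry2 (cryptochromes), Nr1d1 and Nr1d2 (REV-ERBs), the ubiquitin ligase gene Fbxl21 and the kinase gene Csnk1e were not called. Nr1d1 differed by -0.95 and -1.08 with intervals that span zero, -2.77 to 0.87 and -2.90 to 0.74. By its brightest probe set Csnk1d, another kinase gene, was called only between the smoke groups, with a recovery minus SHS4m difference of -1.19 (adjusted p = 0.0193).

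**Figure D4:**
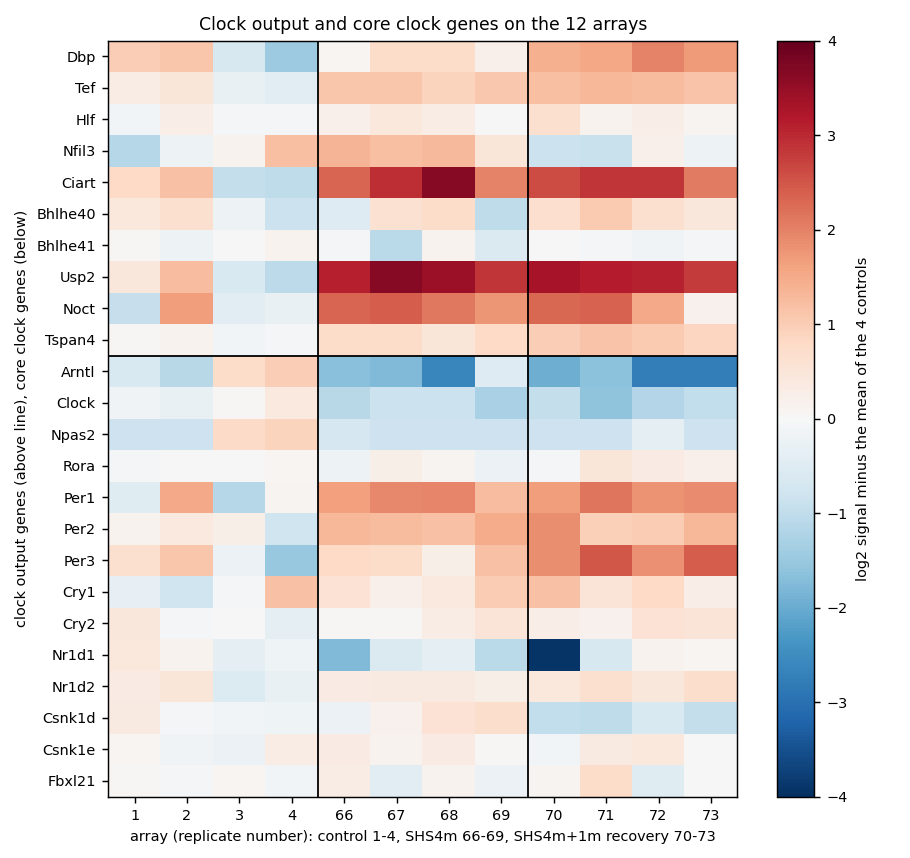
Log2 signal minus the mean of the 4 controls (colour) of the brightest probe set of 10 clock output genes and 14 core clock genes (rows) on the 12 arrays (columns). Usp2 and Ciart are red in all 8 exposed mice, Arntl and Clock are blue in all 8, and Dbp is deepest red in recovery mice.

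Genes that PAR bZIP factors are known to regulate were read from a list of 12, of which 9 were measured. Cyp2b10, a drug-metabolising P450, was the 1 gene called in SHS4m mice and rose by 4.11 (adjusted p = 8.36e-05), and it was still 1.49 higher in recovery mice (adjusted p = 0.0145). Acot3, an acyl-CoA thioesterase, gave 0.31 in SHS4m mice (adjusted p = 0.852) and rose by 2.73 in recovery mice (adjusted p = 0.026), so 2 of 9 were called higher there and 1 of 9 in SHS4m mice, where 1.37% and 3.73% of all genes were called higher by their brightest probe set. The recovery minus SHS4m difference was -2.62 for Cyp2b10 (adjusted p = 0.00121) and 2.42 for Acot3 (adjusted p = 0.0356). Both genes also answer to nuclear receptors, and the part of the PAR bZIP factors in them was not tested.

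Of 17 other genes with a known daily rhythm in liver, 15 were measured, and 6 were called higher and 1 lower in SHS4m mice. In recovery mice 4 were called higher and 2 lower. Over all genes, 3.73% were called higher and 3.74% lower in SHS4m mice, and 1.37% higher and 1.14% lower after recovery. Lpin1, a phosphatidate phosphatase, rose by 2.50 in SHS4m mice (adjusted p = 0.0285) and was 1.93 higher in recovery mice without a call (adjusted p = 0.126). Upp2, a uridine phosphorylase, rose by 1.91 and 1.63 (adjusted p = 0.0044 and 0.0191), and Wee1, a cell cycle kinase that the clock drives, rose by 1.60 and 2.05 (adjusted p = 0.033 and 0.024). Elovl3, a fatty acid elongase, fell by 2.12 and by 1.99 (adjusted p = 0.00396 and 0.0125). By RT-qPCR the study reported higher Lpin1 and lower Elovl3 both before and after recovery. Insig2, which holds back lipid synthesis, gave -0.37 in SHS4m mice (adjusted p = 0.346) and fell by 1.62 in recovery mice (adjusted p = 0.00565). Ppargc1b, a coactivator, rose by 1.31 in SHS4m mice (adjusted p = 0.0353).

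The genes most like Dbp and Usp2 were found by the root mean square difference over the 12 arrays, after the control mean of each gene was subtracted, among 18183 other genes. Nearest to Dbp were Coq10b (0.451), A930033H14Rik (0.514), Klf10 (0.537), Per3 (0.545) and Gdap10 (0.581), where the median of all genes was 1.23. Nearest to Usp2 were Mfsd2a (0.954), Lpin1 (0.958), Ppp1r3g (0.965), Wee1 (1.18) and Upp2 (1.18), where the median was 2.67. The arrays are shared by all of these genes, so this is a description of pattern only.

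Markers of other liver cells differed in places in the SHS4m mice. Of 6 Kupffer cell markers, Marco was called higher and Clec4f lower, and of 5 lymphocyte markers Ptprc was called lower, while 0 of either list were called in recovery mice. The summed linear signal of the Kupffer list was 8856 to 10665 in controls, 7003 to 8946 in SHS4m mice and 7641 to 10546 in recovery mice, and that of the lymphocyte list was 1060 to 1535, 778 to 968 and 1146 to 1338. Of the endothelial, stellate, cholangiocyte and neutrophil lists, 0 genes were called in either comparison with controls. Their part in the results was not tested. In bulk tissue, fewer cells of a type and less RNA per cell cannot be told apart.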

How the data were processed

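Liver RNA of 12 mice was hybridised to Affymetrix Mouse Genome 430 2.0 arrays. The authors summarised probe sets in Affymetrix Expression Console and deposited linear intensities, scaled so that the mean of each array, after trimming 2% at each end, was 500. Which algorithm summarised the probes is not given in the sources. Of 45101 probe sets, 64 array controls were left out. Intensities under 32 were raised to 32 and log2 was taken. All 12 arrays were fitted in limma 3.58.1 (R 4.3.3) as 1 model of 3 groups (lmFit, contrasts.fit, eBayes), with Benjamini-Hochberg adjustment over 45037 probe sets. The script was tested on simulated data. Precision is limited by the 4 arrays in each group.

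Gene names came from the platform annotation, where 34945 probe sets name 1 gene, 932 several and 9160 none listed. A further probe set that names Noct with other genes was not used. Each gene was read by its brightest probe set first. All members were described, up to 6 called genes were named from each list, the core clock list in full where informative, and the 5 genes most like Dbp and Usp2. The members and lists were chosen with earlier results of these data known. Alternatives were other floors, a pseudocount, quantile normalization, median centring, a filter on dim probe sets, intensity trend, robust and weighted fits, 8-array fits, the unadjusted rule of the study and leaving out each array.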

Additional observations from a re-analysis of the deposited data

Results flagged for a closer look

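In 90 groups of 4 arrays, Dixon's test marked 8 arrays as far from the other 3 of their group, 5 of them for clock output genes, and chance marks about 1 in 20 groups. That rate does not hold where the other 3 arrays were at the floor, as for Npas2 and 1450184_s_at of Tef. Any signal above the floor is then marked. SHS4m replicate 69 had a log2 signal of Nfil3 of 9.37 where the others had 10.11 to 10.24. SHS4m replicate 68 was low for Tef, at 12.21 against 12.39 to 12.43, and for Tspan4, at 11.00 against 11.26 to 11.32. Control 2 was high for Hlf, at 11.00 against 10.63 to 10.65. For the dim Tef probe set 1450184_s_at, control 1 was at 6.52 and the other controls were at the floor. Among core clock genes, SHS4m replicate 66 (5.16) and recovery replicate 72 (5.44) were the mice of their groups with Npas2 above the floor, and recovery replicate 72 had Csnk1d at 11.71 against 11.31 to 11.37.

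For 8 listed genes outside the clock outputs, the difference from control was not the same in both smoke groups by limma's test of recovery against SHS4m. Recovery was lower for Csnk1d (-1.19, adjusted p = 0.0193), Cyp2b10 (-2.62, adjusted p = 0.00121) and Insig2 (-1.25, adjusted p = 0.00886), and higher for Acot3 (2.42, adjusted p = 0.0356). The others were Cdkn1a, with recovery lower (-2.27, adjusted p = 0.0098), and Acot4 (0.77, adjusted p = 0.0459), the Kupffer cell marker Clec4f (0.46, adjusted p = 0.0442) and the lymphocyte marker Ptprc (0.64, adjusted p = 0.0466), with recovery higher.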

How the results depend on the processing

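Fitting only the 8 arrays compared lowered the number of member probe sets called from 5 to 3 for SHS4m against control and from 5 to 1 for recovery against control, and raised it from 0 to 2 for recovery against SHS4m. With the unadjusted p and 2-fold rule of the study, 9 were past it in the recovery comparison and 3 between the smoke groups. Leaving out single arrays gave 4 to 6, 4 to 5 and 0 to 0. Tef lost its calls with only 8 arrays (adjusted p = 0.0531 and 0.0765), as did Ciart (0.0717 and 0.12) and, in recovery mice, Usp2 (0.0652), and Dbp gained one between the smoke groups (0.046). Each of these fits has fewer arrays and takes no spread from the third group. The SD of Dbp was 1.25 in controls, 0.34 in SHS4m mice and 0.242 in recovery mice. What changed the calls was not tested. Of 690 single-gene values, 643 kept direction and call, 25 lost a call, 9 gained one and 13 changed sign, 0 of the 13 being called. Bhlhe40 in SHS4m mice became 0.0304 with median centring, 0.0019 with array weights, 0.0941 without control 1, 0.164 without control 2, 0.105 without SHS4m 66 and 0.276 without SHS4m 69 (range without single arrays -0.329 to 0.276). Dbp in SHS4m mice became -0.0467 without control 4 (range -0.0467 to 0.801). Bhlhe41 in recovery mice became 0.0302 with quantile normalization and 0.0224 with centring. Between the smoke groups, Ciart became 0.175 without SHS4m 68 and 0.0466 without recovery 73 (range -0.379 to 0.175), and Hlf became -0.0236 without SHS4m 69 and -0.0647 without recovery 70 (range -0.0647 to 0.108). Centring moved the share of higher calls over all probe sets from 46.7% to 60.9% in SHS4m mice (1120 higher and 719 lower) and from 42.4% to 57.3% in recovery mice (272 and 203). The counts of all probe sets called in recovery mice fell from 931 to 475 with centring, 406 with a pseudocount and 258 with only 8 arrays, and were 438 to 817 without single arrays, lowest without control 3. No paired analysis was possible because the groups share no replicate numbers. Nothing in the sources ties mice to a batch, and signals near the floor limit Bhlhe41, Npas2 and the low Ciart controls.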
